A study of Mus musculus with 8 samples.

Results

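The 39 genes described here encode proteins of autophagy and of the lysosome, and their RNA was measured by sequencing in libraries labelled as C2C12, an immortalised line of wild-type mouse myoblasts. They were taken by gene symbol, as the rows of both deposited expression tables that carry one of 39 names. The names were chosen with earlier results of these data known. They are 39 of 52338 genes listed in the Re table and 39 of 52139 listed in the table of the pair. Of the 39, 26 act in building the autophagosome, 8 are lysosomal hydrolases, 3 are lysosomal membrane proteins and 2 are transcription factors of the MiT/TFE family. The Re table held 3 libraries of cells given ginsenoside Re, a saponin of ginseng, and 3 libraries of cells given the solvent DMSO. The other table, here called the pair, held 1 library of cells treated with a concentrate of ginseng berries (GBC) and 1 DMSO library. All 8 libraries carry the same cell line and the wild-type genotype in their labels, which give no dose and no treatment time. No label says that replicates came from separate cultures, so p-values measure only the spread between these libraries, which may be technical. In bulk RNA of this kind, fewer cells of a type and less RNA per cell cannot be told apart.

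In autophagy a membrane sheet, the phagophore, grows around cytoplasm or a damaged organelle, closes into an autophagosome and fuses with a lysosome, where acid hydrolases break down the content. The ULK kinase complex starts the process, a PI3-kinase complex marks the membrane with the lipid PI3P, and ubiquitin-like conjugation enzymes attach ATG8 proteins to the membrane, where they bind cargo receptors. In skeletal muscle the pathway is known for clearing damaged mitochondria and protein aggregates and for releasing amino acids in fasting. Tfeb and Tfe3 are held in the cytoplasm by mTORC1 signalling at the lysosome and, once in the nucleus, switch on many lysosomal and autophagy genes through an E-box known as the CLEAR element.

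The promoters of the genes that hold the letters of that element are shown here because they are the stretch of DNA through which Tfeb and Tfe3 are known to act. Promoter windows of 250 bases before to 50 bases after the start site (RefSeq, GRCm38.p6) were found for 32 of the 39 genes, with 37 windows in all. The 8 letters TCACGTGA, which read the same on both strands and contain the shorter E-box CACGTG, were present in the windows of Atg3, Ctsa, Ctsd, Gla and Mcoln1. That is 13.5% of the 37 windows, against 0.974% of 32851 windows of all genes in the same table. The shorter CACGTG was present for 11 of the 32 genes, in 29.7% of their windows, against 7.15% of all windows. The genes were chosen from the pathway this element is known for, so these shares describe the genes and not Re or GBC. The matches before the start site are given below, 5′ to 3′ on the strand of the gene, with the 8 letters in capitals.
Atg3, chr16:45158731-45158790, plus strand: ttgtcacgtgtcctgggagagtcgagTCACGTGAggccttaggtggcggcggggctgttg
Ctsa, chr2:164833734-164833772, plus strand: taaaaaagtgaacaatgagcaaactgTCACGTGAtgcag
Ctsd, chr7:142387893-142387952, minus strand: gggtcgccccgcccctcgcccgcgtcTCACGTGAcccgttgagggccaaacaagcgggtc
Gla, chrX:134601167-134601255, minus strand: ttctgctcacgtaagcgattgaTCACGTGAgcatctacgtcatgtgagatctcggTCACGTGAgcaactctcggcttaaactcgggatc
Mcoln1, chr8:3500447-3500506, plus strand: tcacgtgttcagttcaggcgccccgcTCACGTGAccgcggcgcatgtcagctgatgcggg

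The match lay 72 bases before the start site in Atg3, 99 in Ctsd and 46 in Mcoln1. Gla held a match 228 and another 195 bases before the start, and Ctsa held one 13 bases before and another 5 bases after it. A match is a run of letters and not a measured binding site.

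The libraries differed in scale and, between the tables, in what kind of cell their RNA resembled. Summed TPM of the listed genes was 704657 to 743269 in Re libraries and 642180 to 716589 in DMSO libraries of the Re table, with the lowest sum in DMSO replicate 2, and 479938 in the GBC library and 403442 in the DMSO library of the pair. TPM is scaled by gene length and library and keeps no read depth, so depth is unknown and counting error cannot be stated. Over all features of a library TPM adds up to a fixed total. Sums that differ therefore leave differing parts unlisted, unless values were rescaled, and what those parts hold is not known. The myoblast markers Myod1, Myf5 and Cdh15 were listed at 0 in both libraries of the pair, and Des at 1.59 TPM in the GBC and 1.92 TPM in the DMSO library. In the Re table Myod1 lay between 9.95 and 13.6 TPM and Des between 115 and 127 TPM, so the label of a myoblast line was met there and not in the pair. Of 8 myoblast markers 7 exceeded 1 TPM in the Re table and 2, Des and Ncam1, in the pair. Summed over the 8, the level was 271 to 289 TPM in Re and 267 to 299 TPM in DMSO libraries, and 13.8 TPM in the GBC and 10.5 TPM in the DMSO library of the pair. The lists of differentiated myotube, macrophage, endothelial and epithelial markers summed to at most 35.3, 13.2, 1.13 and 1.32 TPM in any library. Of 6 macrophage markers, which matter here because macrophages are rich in lysosomes, 1 exceeded 1 TPM in the Re table, Cd14, while Ptprc and Adgre1 were listed at 0 in each library there. In the pair 2 of the 6 exceeded 1 TPM in at least 1 library, Cd14 at 2.06 TPM with GBC and 0.82 TPM with DMSO and Lyz2 at 0.87 TPM with GBC and 1.02 TPM with DMSO. Ptprc was at 0.11 TPM with GBC and 0.06 TPM with DMSO, and the 6 summed to 3.1 TPM with GBC and 1.99 TPM with DMSO. The 6 fibroblast markers summed to 248 to 288 TPM in Re and 196 to 289 TPM in DMSO libraries. In the pair they summed to 119 TPM with GBC and 61 TPM with DMSO. Thy1, at or near 0 in the Re table, reached 22.1 TPM with GBC and 23.8 TPM with DMSO. Pdgfra was also higher in the pair, at 9.84 TPM with GBC and 5.85 TPM with DMSO. Col3a1 was lower there, at 39.3 TPM with GBC and 19.8 TPM with DMSO against 178 to 271 TPM, and so was Postn. Col1a1 lay above the Re table with GBC and below it with DMSO, and Dcn stayed under 1 TPM. The part of these cell type markers in the differences below was not tested.

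All 39 genes passed the filter of a mean of at least 1 TPM in both tables, among 11967 genes of the Re table and 10989 of the pair. They held 0.376%, 0.384% and 0.388% of listed TPM in Re libraries and 0.368%, 0.357% and 0.355% in DMSO libraries, without overlap. In the pair they held 0.242% in the GBC and 0.243% in the DMSO library. Listed TPM includes mitochondrially encoded genes, which took 13.6% to 16.9% of it in Re and 14.4% to 18.1% in DMSO libraries of the Re table. These shares depend on that part, were not set beside those of other gene sets, and were not tested. In the Re table the level, as the plot of levels by library shows, was highest for Sqstm1, the receptor p62 that binds ubiquitinated cargo, at 420.4, 427 and 538 TPM in Re libraries and 422, 391 and 383 TPM in DMSO libraries. By the mean of the 6 libraries it was lowest for Tfeb, at 3.06, 4.04 and 3.48 TPM in Re and 3.85, 2.71 and 2.96 TPM in DMSO libraries, a mean of 3.35 TPM that overlapped Atg14, at 3.45 TPM. Below Sqstm1 came Lamp1, Ctsl, Ctsb, Ctsd and Gabarap, with means over the 6 libraries of 326, 251, 231, 221 and 214 TPM. By its range over the libraries Sqstm1 did not overlap Lamp1, while Lamp1 and each of the next 4 overlapped the neighbour in that order. Within each library, Lamp1 was above Ctsl and Ctsl above Ctsb. Ctsb and Ctsd did not keep their order in every library, nor did Ctsd and Gabarap. A gap followed before Lamp2, at a mean of 88.9 TPM, whose highest library stood at 100.2 TPM against 176 TPM in the lowest library of Gabarap.

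**Figure D1:**
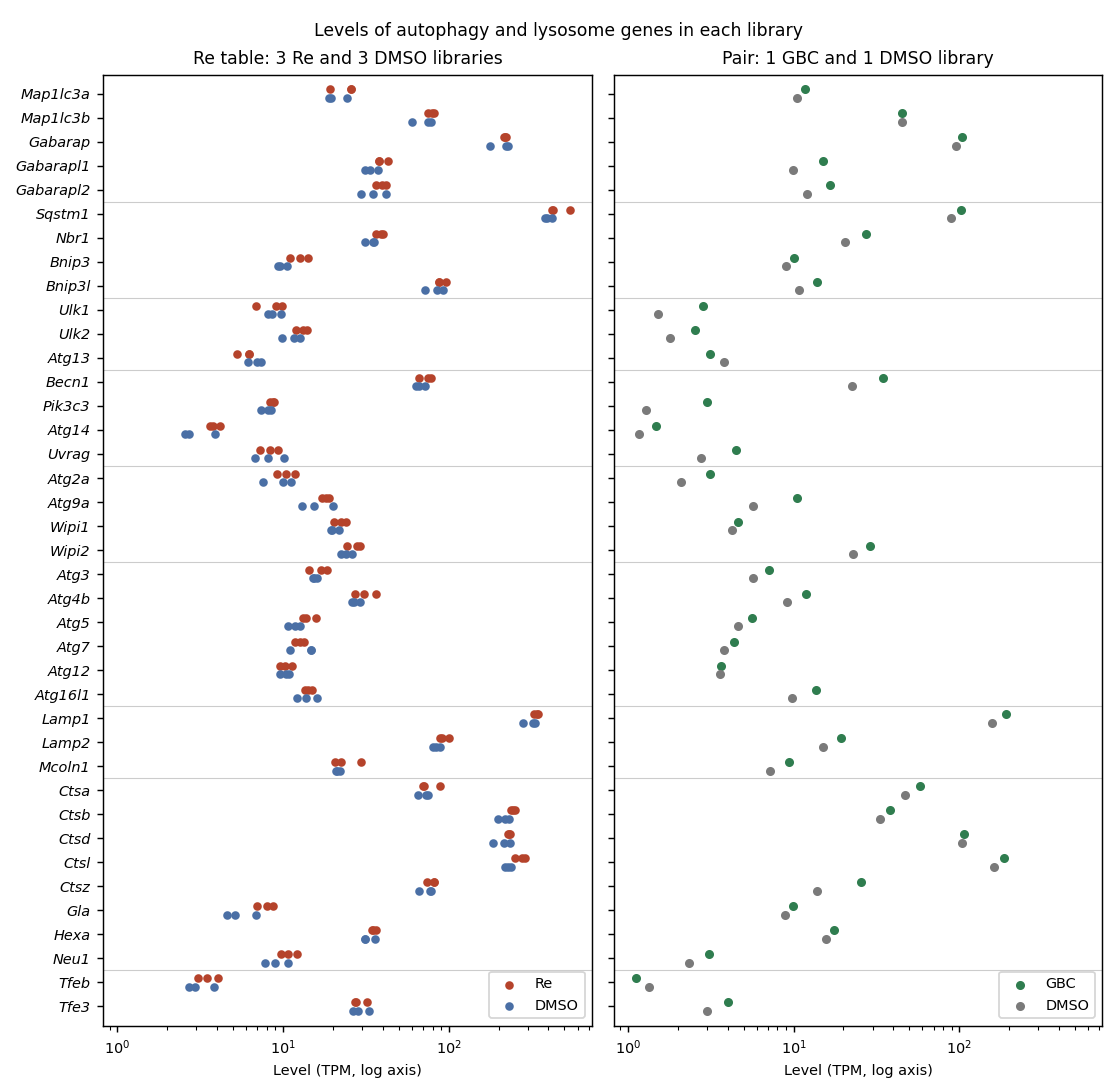
Level of each of the 39 genes in TPM on a log axis, with 1 point per library; Re above DMSO in the left panel and GBC above DMSO in the right panel, and lines between groups of genes by role. By the mean of a table's libraries, Sqstm1 at 383 to 538 TPM is the highest row of the Re table and Tfeb the lowest of both tables, overlapping Atg14.

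Of the 39 genes, 0 passed the threshold of 0.05 between Re and DMSO by limma with Benjamini-Hochberg adjustment over 11967 genes, and 0% of all genes did, with adjusted p between 0.687 and 0.995 for the 39. Without trend, or with robust variances, limma called 0 of the 39 too. At an unadjusted p under 0.05 there were 3 of the 39, Bnip3, Ctsl and Gla, all higher in Re, where 5.65% of all genes were higher and 0.577% lower at that p. The difference was above 0 for 34 of 39 genes, against 77.5% of all genes tested. Its median was 0.142 over the 39 genes and 0.105 over all genes on the log2(TPM + 1) scale, and 27 of the 39 lay above the median of all genes. Over all genes tested, the 95% confidence interval of a gene had a median half-width of 0.31 on that scale. Of the 39 only Bnip3 and Gla differed by more than that. Ctsl, at 0.25, had a narrower interval of its own, from 0.05 to 0.46.

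Autophagosome and hydrolase genes had similar median differences. The median difference was 0.138 over 26 autophagosome genes, of which 22 were higher in Re, and 0.161 over 8 hydrolase genes, of which 8 were higher. After median-of-ratios scaling, which moves the median over all genes by 0.105 to 0.000, these medians were 0.031 and 0.047, and 17 of 26 and 5 of 8 genes were higher. Summed TPM of the 8 hydrolase genes was 937, 955 and 988 in Re libraries and 909, 777 and 859.8 in DMSO libraries. After scaling it was 923, 929 and 910.1 in Re libraries and 887, 870.1 and 881 in DMSO libraries, so the groups did not overlap on either scale. The 26 autophagosome genes summed to 1243, 1267 and 1396 TPM in Re and 1249, 1101 and 1164 TPM in DMSO libraries, and these ranges overlapped, as they did after scaling. Ctsb, Ctsd and Ctsl make up most of the hydrolase sum, and the sums were not tested as a score. Summed TPM of 34 other hydrolases and their helpers was 970.8, 992.5 and 1006 in Re libraries as deposited. In DMSO libraries it was 986.5, 815.4 and 905.8, so these ranges overlapped. How often the sums of other sets of 8 genes stand apart was not counted.

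**Figure D2:**
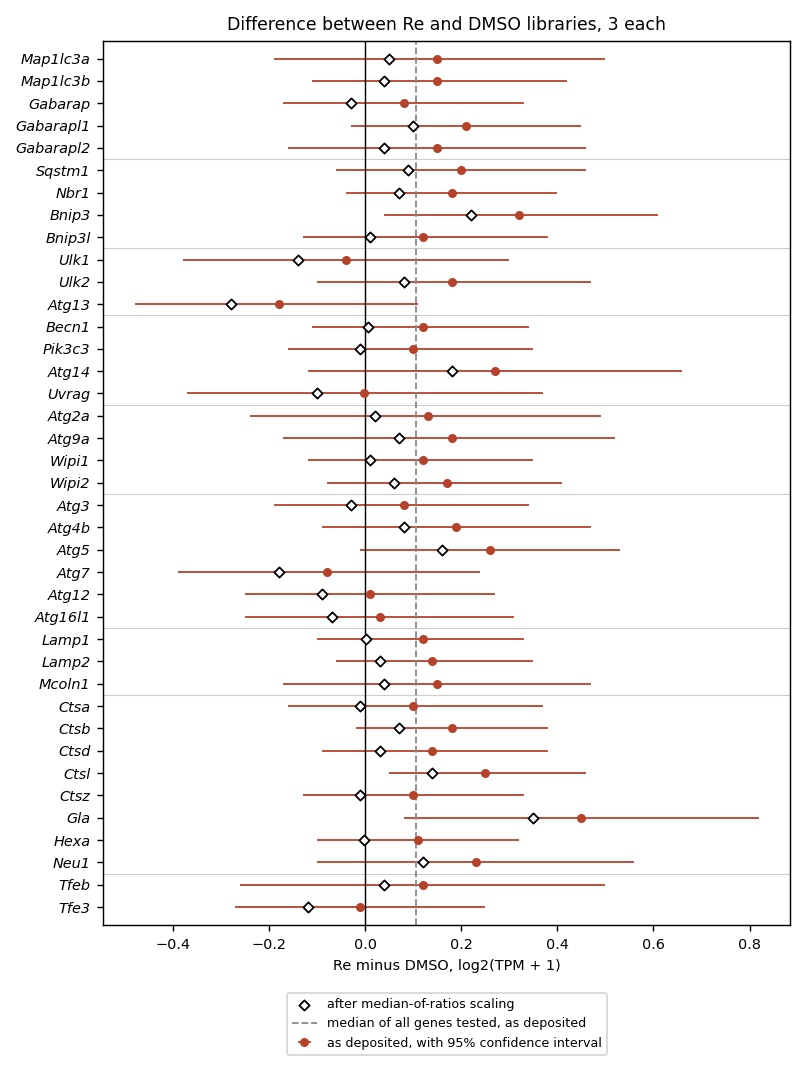
Re minus DMSO on the log2(TPM + 1) scale for each gene: filled points are deposited values with their 95% confidence interval from limma (3 Re and 3 DMSO libraries), diamonds the same after median-of-ratios scaling, and the dashed line the median of all 11967 genes at 0.105. Intervals of Bnip3, Ctsl and Gla leave out 0 before adjustment, and most diamonds lie close to 0.

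In 7 of 39 genes the lowest Re value exceeded the highest DMSO value, and in 0 the groups stood apart the other way, where 13.7% of all genes were above and 1.27% below. The 7 were Gabarapl1, Nbr1, Bnip3, Atg5, Ctsb, Ctsl and Gla. After median-of-ratios scaling 3 lay above, Nbr1, Ctsl and Gla, and 1 below, Atg13, against 5.28% of all genes above and 5% below. The plot of library medians shows 1 library standing apart: DMSO replicate 2 was the lowest library for 27 of 39 genes as deposited and for 8 after scaling. Its median deviation from the mean of the 6 libraries was -0.196 over the 39 genes and -0.152 over all genes, against 0.014, 0.063 and 0.119 over the 39 in Re libraries and 0.040 and -0.074 in the other DMSO libraries. Without DMSO replicate 2 the median was 0.088 for autophagosome genes, 0.10 for hydrolase genes and 0.054 for all genes. In that setting 30 of 39 genes were higher in Re, against 65.8% of all genes. Groups then did not overlap for 10 of 39 genes, against 21.7% of all genes, as fewer values have to stand apart. Mitochondrially encoded genes took 13.6% to 16.9% of listed TPM in Re and 14.4% to 18.1% in DMSO libraries. With these genes left out and the rest rescaled, 30 of 39 genes were higher in Re, against 57% of all genes. Groups then did not overlap for 3 of 39, or 7.69%, against 10.3% of all genes.

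**Figure D3:**
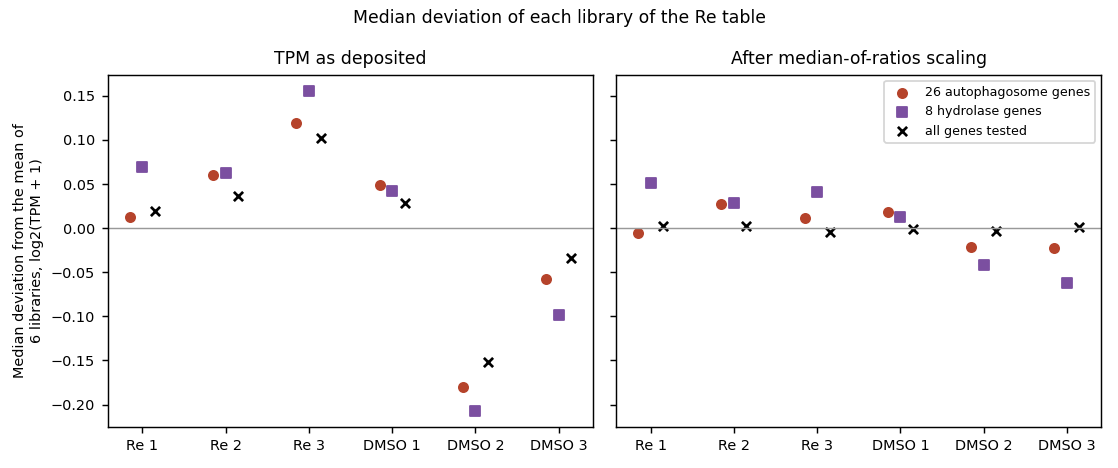
Median deviation of each library of the Re table from the mean of the 6 libraries, in log2(TPM + 1), over 26 autophagosome genes, 8 hydrolase genes and all genes tested; deposited values on the left, median-of-ratios scaled on the right. DMSO 2 lies lowest in all 3 sets as deposited, at -0.152 for all genes, and after scaling the medians lie between -0.062 and 0.051.

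The cargo receptors held the autophagosome gene with the smallest p. Bnip3, a mitophagy receptor of the outer mitochondrial membrane known for its induction by hypoxia, had 12.6, 14.2 and 11.0 TPM in Re libraries and 9.60, 9.34 and 10.6 TPM in DMSO libraries. The groups did not overlap, and the difference of 0.32 (95% confidence interval 0.04 to 0.61) had an unadjusted p of 0.0287 and an adjusted p of 0.687 in limma. After scaling it was 0.22, and the Re range then overlapped that of DMSO. Its paralogue Bnip3l, also a mitophagy receptor, had a mean of 90.0 TPM in Re and 82.9 TPM in DMSO libraries (SD 5.17 and 10.4, n = 3 each), a difference of 0.12. Bnip3 supplied 12.7%, 12.9% and 11.3% of their joint TPM in Re and 11.8%, 9.21% and 11.1% in DMSO libraries, a measure that does not depend on library scale and in which the groups overlapped. Sqstm1 differed by 0.20 with overlapping groups; its Re library 3 stood above the rest, and without it the difference was 0.09. Nbr1, another receptor of ubiquitinated cargo, had 36.3, 38.8 and 40.1 TPM in Re libraries and 35.4, 31.1 and 34.8 TPM in DMSO libraries, a difference of 0.18 with an adjusted p of 0.687 in limma. An overlapping antisense gene of Bnip3, Gm45507, reached 2.89 TPM, a named copy of Bnip3l, Bnip3l-ps, 3.32 TPM, and the strand setting of the counting is not given in the sources used here.

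All 5 ATG8 genes were higher in Re as deposited, and 4 of 5 after scaling, the exception being Gabarap. These small ubiquitin-like proteins are joined to phosphatidylethanolamine on the growing membrane. Gabarapl1 had 38.0, 37.7 and 42.8 TPM in Re libraries and 37.7, 33.5 and 31.2 TPM in DMSO libraries. Its groups stood apart by less than the spread within either, at 37.71 TPM for the lowest Re and 37.66 TPM for the highest DMSO library, and its difference of 0.21 had an unadjusted p of 0.081. Gabarap, the most abundant, had 216, 220.2 and 221 TPM in Re and 227.1, 176 and 221 TPM in DMSO libraries, a difference of 0.08 as deposited and -0.03 after scaling. Map1lc3b, the LC3 gene most used as an autophagosome marker, had 79.6, 74.6 and 81.8 TPM in Re and 78.3, 59.8 and 75.0 TPM in DMSO libraries, a difference of 0.15, which was 0.04 without DMSO replicate 2. Map1lc3a had 25.6, 25.7 and 19.2 TPM in Re and 24.4, 19.4 and 19.1 TPM in DMSO libraries. Gabarapl2 had 41.6, 36.5 and 39.5 TPM in Re and 42.0, 35.0 and 29.5 TPM in DMSO libraries. In Map1lc3a, Map1lc3b, Gabarap and Gabarapl2 the groups overlapped, and none of the 5 had an adjusted p under 0.687 in limma. Within the family Gabarap supplied 53.9%, 55.8% and 54.7% of TPM in Re and 55.5%, 54.4% and 58.8% in DMSO libraries, so this share overlapped between groups. Zcchc14 overlaps Map1lc3b on the opposite strand and reached 20.9 TPM.

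Among the kinases that start autophagy, Re and DMSO libraries overlapped in each gene. Ulk2 had 12.0, 13.9 and 13.3 TPM in Re and 12.7, 9.85 and 11.7 TPM in DMSO libraries, a difference of 0.18 with an unadjusted p of 0.178. Ulk1, its paralogue, differed by -0.04. Atg13, a subunit of the complex of these kinases, had 6.21, 5.25 and 6.2 TPM in Re and 7.39, 6.94 and 6.12 TPM in DMSO libraries. At -0.18 it had the lowest difference of the 39, and -0.28 after scaling, where the Re values stood apart below those of DMSO, with an adjusted p of 0.687 as deposited in limma. In the PI3-kinase complex, Atg14, which directs it to sites of autophagosome formation, had 3.6, 3.77 and 4.14 TPM in Re and 3.91, 2.56 and 2.70 TPM in DMSO libraries. That difference of 0.27 rests on 2 of 3 DMSO libraries, the other lying inside the Re range. Becn1, a scaffold of the complex, Pik3c3, its lipid kinase, and Uvrag, a subunit of its endosomal form, differed by 0.12, 0.10 and -0.003.

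Of the genes that feed and read the phagophore membrane, all 4 were higher in Re, by 0.12 to 0.18 as deposited and 0.01 to 0.07 after scaling. Wipi2, which binds PI3P and recruits Atg16l1, had 29.2, 24.4 and 27.8 TPM in Re and 25.96, 22.3 and 24.0 TPM in DMSO libraries, with an unadjusted p of 0.159. Wipi1, another PI3P binder, the lipid transfer protein Atg2a and the scramblase Atg9a differed by 0.12, 0.13 and 0.18. Of the conjugation genes 5 of 6 were higher as deposited and 2 of 6 after scaling. Atg5, which with Atg12 and Atg16l1 forms the ligase-like complex for ATG8 proteins, had 13.8, 15.9 and 13.1 TPM in Re and 11.8, 10.7 and 12.7 TPM in DMSO libraries. Its groups did not overlap, and the difference of 0.26 had an unadjusted p of 0.0555, with 0.16 after scaling. Its partners Atg12 and Atg16l1 differed by 0.01 and 0.03. Atg4b, the protease that trims ATG8 proteins, differed by 0.19, Atg3, their conjugating enzyme, by 0.08, and Atg7, the activating enzyme, by -0.08.

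Each of the 8 hydrolase genes had a higher mean in Re as deposited, where 77.5% of all genes did, and 5 of 8 after scaling, where 50.1% of all genes did. In Ctsb, Ctsl and Gla the Re values stood apart above those of DMSO, as in 13.7% of all genes, and in Ctsl and Gla after scaling, as in 5.28%. Ctsl, a cysteine protease, had 252, 278 and 291 TPM in Re libraries and 239, 218 and 229 TPM in DMSO libraries, a difference of 0.25 (0.05 to 0.46) with an unadjusted p of 0.0202. Gla, the alpha-galactosidase A that is lost in human Fabry disease, had 8.0, 6.93 and 8.68 TPM in Re and 6.89, 4.60 and 5.10 TPM in DMSO libraries. Its difference of 0.45 (0.08 to 0.82) was the largest of the 39, with an unadjusted p of 0.0229 and an adjusted p of 0.687 in limma. These 2 genes remained apart after scaling, at 0.14 and 0.35, although the lowest Re and highest DMSO values of Gla differed by little, at 6.93 and 6.89 TPM as deposited. Without DMSO replicate 2 the difference of Gla was 0.35 and that of Ctsl 0.22. Ctsb, another cysteine protease, had 252, 244 and 239 TPM in Re and 232, 199 and 218 TPM in DMSO libraries, a difference of 0.18, and 0.07 after scaling. On the opposite strand Fdft1 overlaps Ctsb and reached 27.9 TPM.

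The other 5 hydrolase genes overlapped between groups. Ctsd, the aspartic protease, had 235, 229.6 and 231 TPM in Re and 234, 185 and 215 TPM in DMSO libraries, with DMSO replicate 2 below the rest. Neu1, a sialidase, had 10.7, 9.69 and 12.2 TPM in Re and 10.8, 7.80 and 8.91 TPM in DMSO libraries, a difference of 0.23. Ctsa, the carboxypeptidase that protects Neu1, had 70.0, 71.1 and 88.4 TPM in Re and 73.0, 65.2 and 74.5 TPM in DMSO libraries. Re library 3 stood above the rest, and without it the difference of 0.10 was -0.004. Ctsz, a cysteine carboxypeptidase, had 73.5, 82.1 and 81.3 TPM in Re and 77.3, 65.8 and 78.1 TPM in DMSO libraries. Hexa, a subunit of beta-hexosaminidase, had 35.1, 34.6 and 36.3 TPM in Re and 35.8, 31.3 and 31.1 TPM in DMSO libraries. Ctsa, Ctsz and Hexa differed by 0.10, 0.10 and 0.11 as deposited and by -0.01, -0.01 and -0.002 after scaling. Nelfcd, on the opposite strand of Ctsz, reached 24.7 TPM. As a share of hydrolase TPM, Ctsl was at 26.9%, 29.1% and 29.4% in Re and 26.3%, 28.1% and 26.7% in DMSO libraries, overlapping, and Gla at 0.854%, 0.725% and 0.879% in Re and 0.758%, 0.592% and 0.593% in DMSO libraries, overlapping as well.

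Lysosomal membrane genes and the MiT/TFE factors differed little. Lamp2, the membrane glycoprotein lost in the human muscle disorder Danon disease, had 91.7, 88.5 and 100.2 TPM in Re and 89.0, 80.5 and 83.6 TPM in DMSO libraries, a difference of 0.14. Lamp1, its paralogue, differed by 0.12 and Mcoln1, a lysosomal calcium channel, by 0.15, where Re library 2 at 29.7 TPM stood above 20.5 and 22.3 TPM in the other Re libraries. After scaling the 3 genes differed by 0.002 to 0.04. Tfeb differed by 0.12 and Tfe3, at 27.2, 27.7 and 31.9 TPM in Re and 28.3, 26.6 and 32.8 TPM in DMSO libraries, by -0.01. The 5 genes with TCACGTGA before or at their start had a median difference of 0.142, from 0.08 in Atg3 to 0.45 in Gla, against 0.15 for the 27 genes whose windows did not hold it. Whether the 2 sets differ was not tested.

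Other genes of the pathway were counted in 5 lists. Among 36 other autophagosome genes, 30 were higher and 6 lower in Re with a median of 0.146, among 34 other hydrolases and their helpers 27 and 7 with 0.110, and among 18 subunits of the vacuolar ATPase, the pump that acidifies the lysosome, 15 and 3 with 0.170. Among 22 other lysosomal membrane and sorting genes 19 were higher and 3 lower with a median of 0.152, and among 23 genes of the mTORC1 platform and MiT/TFE control 17 and 6 with 0.118. In each list 0 genes passed the threshold in limma, and 2, 4, 2, 0 and 4 had an unadjusted p under 0.05 in that order, beside 5.65% of all genes higher and 0.577% lower at that p and 77.5% of all genes higher at any p. The 3 with the smallest p in each list were Atg4c, Vmp1 and Epg5, at 0.38, 0.24 and 0.35, among autophagosome genes; Pla2g15, Sumf1 and Scpep1, at 0.37, 0.26 and 0.25, among hydrolases; and Atp6v1c1, Atp6v0b and Tcirg1, at 0.30, 0.25 and 0.26, among pump subunits. For membrane genes they were Hgsnat, Ostm1 and Clcn7, at 0.29, 0.19 and 0.24. In the mTORC1 list they were Lamtor2, a subunit of the Ragulator scaffold, Fnip1, a partner of folliculin, and Zkscan3, a repressor of autophagy genes, at 0.27, 0.27 and 0.30. Lamtor2 had 29.1, 31.1 and 30.1 TPM in Re and 24.0, 25.6 and 24.7 TPM in DMSO libraries, with an unadjusted p of 0.0132, lower than that of any of the 39, and an adjusted p of 0.687 in limma.

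GBC was compared with DMSO in 1 library each, so no test was made and differences describe these 2 libraries. As deposited 37 of 39 genes were higher with GBC, against 88.8% of all genes, with a median of 0.294 over the 39 and 0.320 over all genes, and 18 of 39 lay above the median of all genes. A difference of at least 1 either way was reached by 0 of 39 genes, where 4.35% of all genes were higher and 0.4% lower by that much. The median was 0.331 over autophagosome and 0.203 over hydrolase genes as deposited. After median-of-ratios scaling, which moved the median over all genes to -0.066, the medians were -0.090 and -0.259. On that scale 9 of 39 genes lay above 0 and 14 of 39 above the median of all genes. The share of all genes above 0 after scaling was not counted. The hydrolase median was below that of all genes on both scales, and 1 of 8 hydrolase genes, Ctsz, lay above it as deposited.

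The largest GBC difference of the 39 was that of Ctsz, with 25.5 TPM in the GBC and 13.9 TPM in the DMSO library, at 0.83 as deposited and 0.39 after scaling. Pik3c3 followed with 3.0 TPM in the GBC and 1.28 TPM in the DMSO library, at 0.81, and Atg9a with 10.5 TPM in the GBC and 5.72 TPM in the DMSO library, at 0.78. These 3 stayed higher after scaling, Pik3c3 and Atg9a at 0.50 and 0.36. Ulk1 had 2.85 TPM with GBC and 1.51 TPM with DMSO, a difference of 0.62, and Becn1 34.9 TPM with GBC and 22.5 TPM with DMSO, a difference of 0.61. Gabarapl1 had 15.0 TPM with GBC and 9.99 TPM with DMSO, at 0.54 the largest of the ATG8 genes, and 0.11 after scaling. Gabarap had 103 TPM with GBC and 95.1 TPM with DMSO, a difference of 0.12, and Map1lc3a 11.7 TPM with GBC and 10.4 TPM with DMSO, a difference of 0.16. Map1lc3b had 45.2 TPM with GBC and 45.1 TPM with DMSO, a difference of 0.002, and Gabarapl2 16.5 TPM with GBC and 12.1 TPM with DMSO, a difference of 0.42. These 4 lay below 0 after scaling. Within that family Gabarapl1 supplied 7.81% of TPM with GBC and 5.78% with DMSO. Among receptors Nbr1 had 27.5 TPM with GBC and 20.4 TPM with DMSO, at 0.41, Bnip3l differed by 0.35 and Bnip3 by 0.13. Sqstm1 had 103 TPM with GBC and 88.9 TPM with DMSO, a difference of 0.21.

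**Figure D4:**
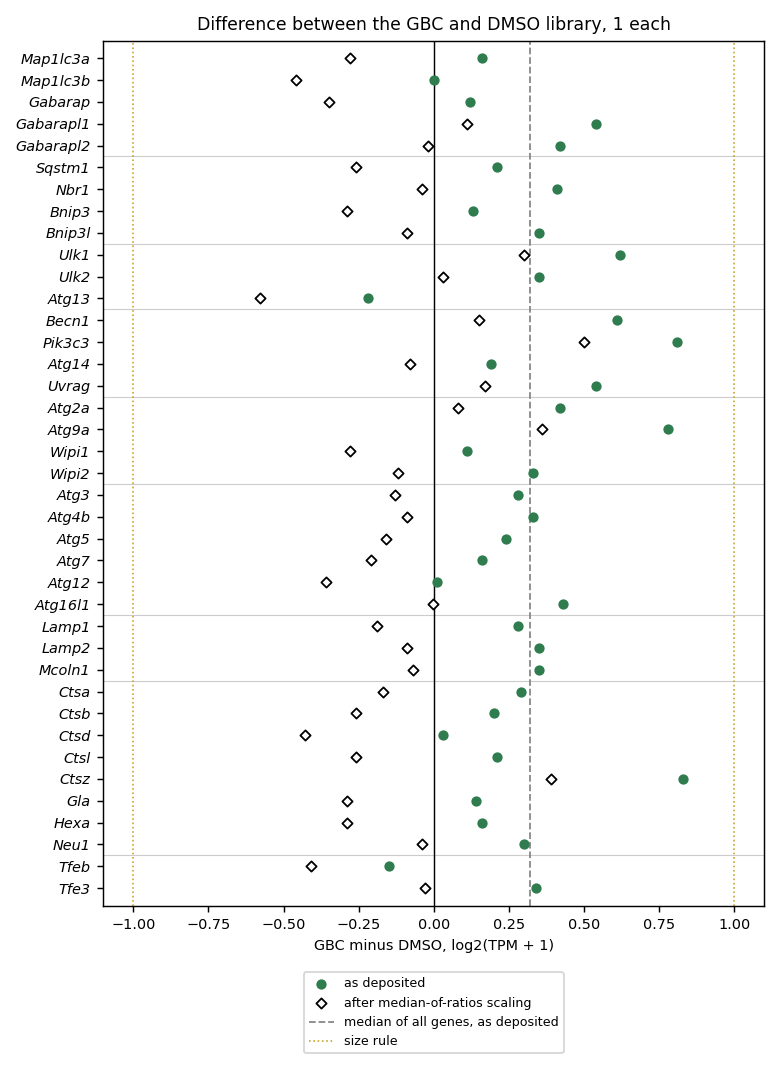
GBC minus DMSO on the log2(TPM + 1) scale for each gene in 1 library each, with filled points for deposited values, diamonds for median-of-ratios scaled values, a dashed line at the median of all genes (0.320) and dotted lines at a difference of 1 either way. No gene reaches a dotted line. Of the 39 diamonds 9 lie above 0, where the median of all genes after scaling is -0.066.

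Lower with GBC were Atg13, at 3.13 TPM in the GBC and 3.81 TPM in the DMSO library, and Tfeb, at 1.12 TPM in the GBC and 1.35 TPM in the DMSO library. Their differences of -0.22 and -0.15 stood at percentiles 2.54 and 4.01 of all genes. Tfe3 had 4.04 TPM with GBC and 2.99 TPM with DMSO, at 0.34, so the 2 MiT/TFE genes lay on opposite sides of 0 as deposited, and both were below 0 after scaling, at -0.41 for Tfeb and -0.03 for Tfe3. The remaining hydrolase genes differed by 0.29 for Ctsa, 0.20 for Ctsb, 0.03 for Ctsd, 0.21 for Ctsl, 0.14 for Gla, 0.16 for Hexa and 0.30 for Neu1. Ctsa had 57.9 TPM with GBC and 47.0 TPM with DMSO, Ctsb 38.0 TPM with GBC and 33.1 TPM with DMSO, and Ctsd 107 TPM with GBC and 104 TPM with DMSO. Ctsl had 187 TPM with GBC and 162 TPM with DMSO, Gla 9.90 TPM with GBC and 8.90 TPM with DMSO, Hexa 17.6 TPM with GBC and 15.7 TPM with DMSO, and Neu1 3.10 TPM with GBC and 2.33 TPM with DMSO. Lamp1, Lamp2 and Mcoln1 differed by 0.28, 0.35 and 0.35, Lamp2 at 19.4 TPM with GBC and 15.0 TPM with DMSO. The remaining autophagosome genes lay between 0.01 for Atg12 and 0.54 for Uvrag, Atg16l1 among them with 13.6 TPM with GBC and 9.85 TPM with DMSO, a difference of 0.43.

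Several genes outside the 39 passed a difference of 1 with GBC as deposited, and none of those named here did after median-of-ratios scaling. Gaa, the acid alpha-glucosidase that degrades lysosomal glycogen, had 28.4 TPM in the GBC and 10.3 TPM in the DMSO library, a difference of 1.38, and 0.93 after scaling. Fuca1 and Glb1, a fucosidase and a beta-galactosidase, differed by 1.19 and 1.15, and by 0.82 and 0.75 after scaling. Among 31 other hydrolases and helpers 4 passed as deposited, and among 34 other autophagosome genes 1, Pik3r4, the regulatory partner of Pik3c3, at 1.13, against 4.35% of all genes. In the vacuolar ATPase list 1 of 17 passed, Atp6v0c at 1.24, in the membrane list 1 of 21, the tetraspanin Cd63 at 1.21, and in the mTORC1 list 1 of 20, Rptor at 1.16. These counts of 1 gene are near the share of all genes. After scaling Pik3r4, Atp6v0c, Cd63 and Rptor differed by 0.81, 0.80, 0.76 and 0.76. The medians of these 5 lists were 0.310, 0.310, 0.10, 0.408 and 0.354 in the order hydrolases, autophagosome, pump, membrane and mTORC1 genes.

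DMSO levels of the 39 genes differed between the tables, which were treated as normalised separately. Of 39 genes 38 were higher in DMSO of the Re table than in DMSO of the pair, with a median log2 difference of 1.313, against 1.144 over 9966 genes at 1 TPM in both. The exception was Gla, with a mean of 5.53 TPM in DMSO of the Re table and 8.90 TPM in DMSO of the pair, a difference of -0.60. The largest were Tfe3, with a mean of 29.2 TPM in the Re table and 2.99 TPM in the pair, at 2.92, Bnip3l, with 82.9 TPM in the Re table and 10.7 TPM in the pair, at 2.84, and Ctsb, with 216 TPM in the Re table and 33.1 TPM in the pair, at 2.68. Wipi2 and Bnip3 were close, at 0.08 and 0.11. Across the 39 genes the levels had a Pearson r of 0.90 and a Spearman rho of 0.89 between the tables, which describes genes of the same libraries and not replicates.

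The plot of family make-up shows shares of TPM, which do not depend on library scale. Ctsb supplied 24.2% to 26.9% of hydrolase TPM in the 6 libraries of the Re table, and 8.52% in the GBC and 8.54% in the DMSO library of the pair. Ctsl supplied 26.3% to 29.4% in the Re table, and 42.0% in the GBC and 41.8% in the DMSO library of the pair. Lamp2 supplied 20.3% to 22.8% of the TPM of Lamp1 and Lamp2 in the Re table and 9.18% with GBC and 8.67% with DMSO in the pair. Bnip3 supplied 9.21% to 12.9% of the TPM of Bnip3 and Bnip3l in the Re table, and 41.8% with GBC and 45.7% with DMSO in the pair. Gabarap supplied 53.9% to 58.8% of ATG8 TPM in the Re table, and the pair lay within that range, at 53.9% with GBC and 55.1% with DMSO. Cell identity by the markers above and table cannot be told apart in these contrasts.

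**Figure D5:**
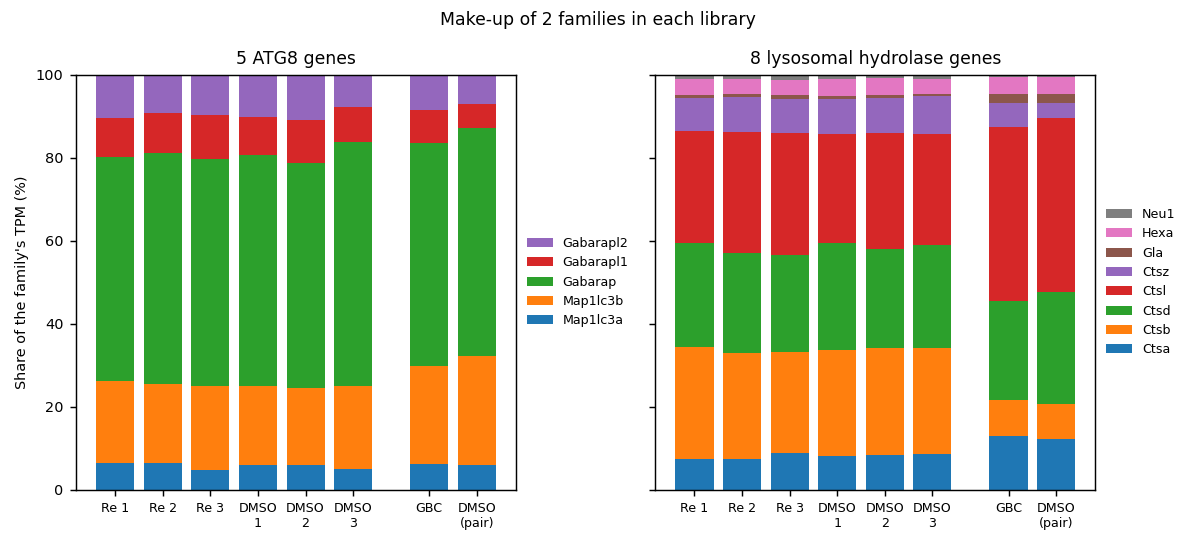
Share of each gene in the summed TPM of its family, in percent, for the 5 ATG8 genes on the left and the 8 hydrolase genes on the right, with 1 bar per library in the order Re 1 to 3, DMSO 1 to 3, GBC and DMSO of the pair. Ctsl takes 42.0% and 41.8% of hydrolase TPM in the GBC and DMSO library of the pair, against 26.3% to 29.4% in the Re table.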

How the data were processed

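RNA was extracted with an RNeasy kit and libraries were made with a TruSeq RNA kit, per the labels' protocols. STAR and RSEM, and the builds GRCh38 and GRCm39, are named without versions or roles in the submitters' processing notes. The deposited values are log2(TPM + 1) per Ensembl gene, which the authors made, and turned back into TPM they lay within 2.0e-04 of a multiple of 0.01. TPM carries no depth, so no count model was used.

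Re and DMSO were compared with limma 3.58.1 (trend, two-sided) in R 4.3.3 on log2(TPM + 1), over genes averaging at least 1 TPM, with Benjamini-Hochberg adjustment and a threshold of 0.05. The step was tested on simulated data. GBC and DMSO, 1 library each, were compared by the difference, with a size rule of 1. Summaries used Python 3.11.15. Alternatives were pseudocounts of 0.1 and 0.5, filters, scalings, limma options, each library left out, and a replicate block. Promoters are RefSeq windows on GRCm38.p6; no coordinates were mixed with the authors' build.

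The genes and lists were chosen with earlier results of these data known. Values in every library are given for the gene of each role with the smallest p (Re) or the largest difference (GBC), the highest and lowest gene, and all hydrolase and ATG8 genes. From each pathway list up to 3 genes are named with their difference, by the same measures. Library values of Mcoln1, Nbr1, Atg13, Tfe3 and Lamtor2 in the Re table, and of Becn1, Atg13, Tfeb and Gaa in the pair, were added after they were seen.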

Additional observations from a re-analysis of the deposited data

How the results depend on the processing

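No alternative gave the 39 genes a call in the comparison of Re with DMSO, leaving out any library included. The number of all genes called was 0 under each scaling, filter, pseudocount and limma option, and 0 to 7 without 1 library: leaving out DMSO replicate 1, 2 or 3 gave 3, 6 or 0 genes, and leaving out Re replicate 1, 2 or 3 gave 2, 1 or 7. Direction was kept by 26 of 39 genes in every alternative in which they were fitted. Of these, Atg14 and Tfeb were not fitted under the filter of a mean of at least 5 TPM. The share of all genes that kept their direction was not counted. The 7 genes whose groups did not overlap became 4 after median-of-ratios scaling (10.3%, against 10.3% of all genes) and 4 at equal listed sums (11.4% of all genes). They became 5 after quantile normalization (10.3% of all genes) and 3 with mitochondrially encoded genes left out (10.3% of all genes). Without 1 library, where fewer values have to stand apart, they were 8 to 23 of 39. Leaving out DMSO replicate 1, 2 or 3 gave 23, 10 or 8 (59%, 25.6% or 20.5%), against 37.2%, 21.7% or 22.7% of all genes. Leaving out Re replicate 1, 2 or 3 gave 15, 11 or 9 (38.5%, 28.2% or 23.1%), against 26.4%, 22.2% or 24.6% of all genes. The median of autophagosome genes was 0.031 after median-of-ratios scaling; without 1 library it was 0.088 to 0.217, the highest without DMSO replicate 1, and that of hydrolase genes 0.10 to 0.225.

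Directions turned in small differences. After median-of-ratios scaling they were -0.03 in Gabarap, -0.01 in Pik3c3, -0.03 in Atg3, -0.09 in Atg12, -0.07 in Atg16l1, -0.01 in Ctsa, -0.01 in Ctsz and -0.002 in Hexa. After quantile normalization they were -0.02 in Gabarap, -0.01 in Pik3c3, -0.03 in Atg3, -0.10 in Atg12, -0.07 in Atg16l1, -0.01 in Ctsa and -0.01 in Ctsz. With mitochondrially encoded genes left out they were -0.01 in Gabarap, -0.01 in Atg3, -0.08 in Atg12 and -0.05 in Atg16l1, and at equal listed sums -0.05 in Atg12 and -0.03 in Atg16l1. Without 1 library the ranges were -0.03 to 0.15 in Gabarap, -0.14 to 0.09 in Ulk1, -0.13 to 0.13 in Uvrag, -0.02 to 0.23 in Atg2a, -0.05 to 0.06 in Atg12, -0.06 to 0.13 in Atg16l1, -0.004 to 0.25 in Mcoln1, -0.004 to 0.16 in Ctsa and -0.08 to 0.07 in Tfe3. Beyond the scaling itself, the cause was not tested.

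With the replicate block 0 genes were called, the smallest adjusted p in limma was 0.427 over all genes and 0.663 over the 39, and the block changed no call. Deviations of same-numbered libraries correlated at 0.16, 0.08 and 0.02, and those of differently numbered libraries at -0.17 to 0.09. Whether the numbers pair the libraries cannot be told from values this small with 3 libraries a group. The descriptions number the Re libraries differently from the titles.

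In the pair, 1 of 39 genes, Pik3c3, passed a difference of 1 with a pseudocount of 0.1, against 9.63% of all genes. The autophagosome median was -0.090 after median-of-ratios scaling, 0.10 at equal listed sums and 0.142 with mitochondrially encoded genes left out. The hydrolase median was -0.259, -0.044 and -0.002 in that order. The median over all genes was -0.066, 0.126 and 0.167 in that order, above both medians each time. Depth is unknown, and intervals with a median half-width of 0.31 over all genes leave small differences undetectable with 3 libraries a group.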

Other observations

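The letters TCACGTGA were also counted in the promoter windows of the other pathway lists. They were present in 25% of 20 windows of other lysosomal membrane and sorting genes (Clcn7, Cln3, Gnptg and Igf2r) and in 17.6% of 17 windows of vacuolar ATPase genes (Atp6v0d1, Atp6v0e and Atp6v1a). They were present in 2.22% of 45 windows of other autophagosome genes (Nrbf2), 2.78% of 36 windows of other hydrolases and their helpers (Sumf1) and 0% of 24 windows of the mTORC1 and MiT/TFE control list, against 0.974% of all 32851 windows. A match is a run of letters, and no match says only that the letters are not in the window.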
